A study of Mus musculus with 80 samples.

Results

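The clustered protocadherins are cell surface proteins of the cadherin superfamily, encoded by the tandem alpha, beta and gamma gene clusters on mouse chromosome 18. Each alternate exon of the alpha and gamma clusters has its own promoter and encodes an extracellular domain, which is spliced to constant exons shared by the whole cluster, whereas the beta genes are single-exon genes. In neurons, single cells choose a few of these promoters, the choice depends on CTCF, cohesin and promoter methylation, and the proteins give each neuron a surface identity used in self-avoidance. The last exons of the alpha and gamma clusters, called C-type, follow different rules of expression from the other alternate exons.

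The members were all rows of the gene expression table whose name starts with Pcdha, Pcdhb or Pcdhg. The table held 24 such rows of 25965, namely 1 alpha row, 22 beta rows and 1 gamma row. To these were added the 2-kb bins of the histone H3 lysine 9 dimethylation (H3K9me2) table that overlap the 3 clusters, 261 of 1026637 bins. All samples were wild-type E14, a line of mouse embryonic stem cells (ESCs). Cells kept in serum with LIF were compared with cells after a switch to 2i, in which serum is replaced by N2B27 with LIF, the MEK inhibitor PD0325901 and the GSK3 inhibitor CHIR99021. RNA-seq had 3 replicates in serum and 3 at each of 6, 24 and 72 h after the switch. H3K9me2 ChIP-seq had 2 bound libraries and 1 input in serum, in 2i at 24 h, and in long-term culture in 2i (LT2i), for which the labels give no length. The labels do not say whether replicates were separate cultures. The study calls the replicates behind its expression plots biological, and no source says so of the ChIP-seq replicates, so p-values measure the spread between these samples, which may be technical for ChIP-seq. E14 is a single line, and nothing here was measured in neurons.

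The alpha row spanned its whole cluster and the gamma row most of its cluster, but which exons they count is not known. The alpha row carries the name Pcdhac1, but its coordinates (GRCm38 chromosome 18, 36930285 to 37187657) are those of Pcdha1 in RefSeq and hold the starts of all 14 alpha genes. The gamma row carries the name Pcdhga11 and spans 37674335 to 37841873, which is the span of Pcdhga3 and holds the starts of 20 of 22 gamma genes. The lengths of these rows were recovered from their values, as those that brought the values closest to whole reads. They were 24.67 kb and 26.094 kb, far shorter than the spans of 257 and 168 kb. Single alternate exons, and the C-type genes Pcdhac1, Pcdhac2, Pcdhgc3, Pcdhgc4 and Pcdhgc5, therefore have no value of their own here, and the rows are called the alpha row and the gamma row. The beta rows span single genes.

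The rows of the 3 clusters differed widely in their level of RNA. Over all 12 libraries the members held 11659 reads, of which the gamma row took 11248 (96.5%), the alpha row 272 (2.33%) and the 22 beta rows together 139 (1.19%). On the deposited scale, log2 per kb with the 75th percentile of every library at 2.51, the gamma row had a mean of 0.89 and stood above or level with 61.5% of all rows. The alpha row had a mean of -4.59 and stood above or level with 17.4%. Of the 22 beta genes, 7 had no reads in any library, 11 had reads in 1 to 5 libraries and 4 in 6 or more, and no beta gene exceeded 7 reads in a library. The total depth of the RNA-seq libraries is not known from the deposited values. In bulk RNA, fewer cells that express a gene and less RNA in each cell cannot be told apart.

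**Figure D1:**
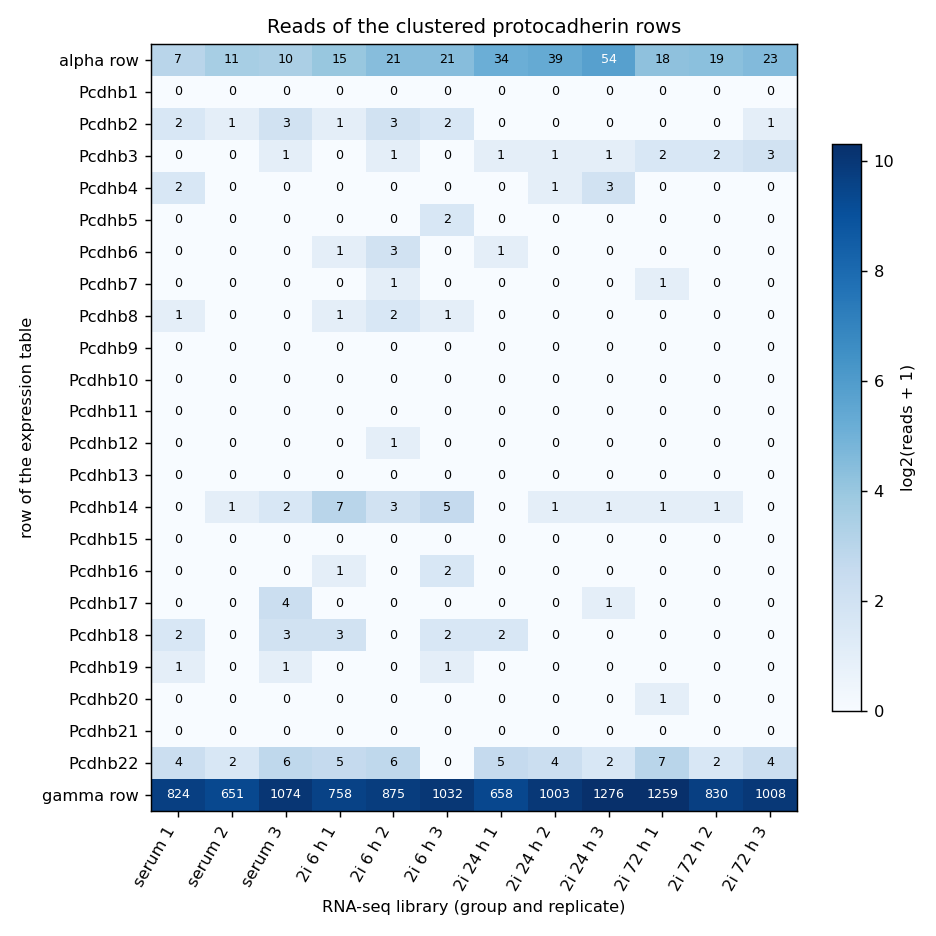
Reads of the 24 clustered protocadherin rows (vertical axis) in each of the 12 RNA-seq libraries (horizontal axis), with the number printed in each cell and the color giving log2(reads + 1). The gamma row holds 651 to 1276 reads per library, the alpha row 7 to 54, and the beta rows 0 to 7.

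The alpha row was higher in 2i, most of all at 24 h. It held 7, 11 and 10 reads in the serum libraries and 15, 21 and 21 at 6 h. At 24 h it held 34, 39 and 54 reads, and at 72 h 18, 19 and 23. On the deposited log2 scale, which corrects for depth, serum stood at -5.67 ± 0.48 and the 6 h group at -4.58 ± 0.20 (mean ± SD, n = 3). The 24 h group stood at -3.48 ± 0.14 and the 72 h group at -4.64 ± 0.31. Every library in 2i was above every serum library, every 24 h library was above all others, and the 6 h and 72 h libraries overlapped.

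The rise of the alpha row at 24 h was 2.19 ± 0.38 (log2 change ± SE) with an adjusted p of 0.000550 in limma, fitted across 17552 genes with Benjamini-Hochberg adjustment. It passed the test when any single library of either group was left out. A gene at 7 to 54 reads a library is measured coarsely, and the pooled reads of 28 in serum and 127 at 24 h have 95% Poisson intervals of 18.6 to 40.5 and 106 to 151. The change at 6 h was 1.09 ± 0.38 and did not pass (adjusted p = 0.0862 in limma). It passed in limma when every gene with reads was tested (adjusted p = 0.0343) and without a variance trend (0.0159). At 72 h it was 1.02 ± 0.38 with an adjusted p of 0.0437 in limma, a call that was lost in 4 of 6 fits without 1 library, namely without serum replicate 1 or 3 or 72 h replicate 2 or 3 (adjusted p = 0.102 to 0.139). It was also lost with only the 6 libraries compared (adjusted p = 0.112 in limma) and with a pseudocount of 1 (0.272). That pseudocount was added on the unlogged deposited scale, is not 1 read, and shrank the change to 0.03. At levels this low such shrinkage is built in, so this loss is no check on single reads. From 24 to 72 h the alpha row fell by 1.16 on the log2 scale (SE 0.38, adjusted p = 0.0396 in limma), and this call was lost without any single one of the 6 libraries compared (adjusted p = 0.0577 to 0.132). The comparisons with serum share the same 3 serum libraries.

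Several other measures moved in the same libraries. The 24 h libraries carried a dependence on gene span, with a median log2 change of 0.47 in the 3511 genes of shortest span and -0.35 in the 3511 of longest span. The alpha row, with a span of 257 kb, was higher by 2.61 with this dependence removed. Of 11 markers of neural cells, where the members are best known, 10 had a row in the expression table, whatever its level. None of the 10 was without reads in all libraries. Their summed log2 level was 5.73 to 5.82 in serum, 6.63 to 6.67 at 6 h, 6.07 to 6.35 at 24 h and 5.22 to 5.37 at 72 h, but this sum is mostly Tubb3, a neuronal tubulin and the most abundant of them. Of the 9 neural markers tested, limma called 3 higher and 2 lower at 6 h (median log2 change -0.19), 2 higher and 2 lower at 24 h (-0.29), and 1 higher and 6 lower at 72 h (-0.87). Over all genes tested the shares higher and lower were 8.16% and 5.08% at 6 h, 29.1% and 24.6% at 24 h, and 23.1% and 23.2% at 72 h. Neurog2 and Dcx, markers of neuronal precursors and young neurons, were near the level of genes without reads in every group. The part of these measures in the alpha result was not tested.

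**Figure D2:**
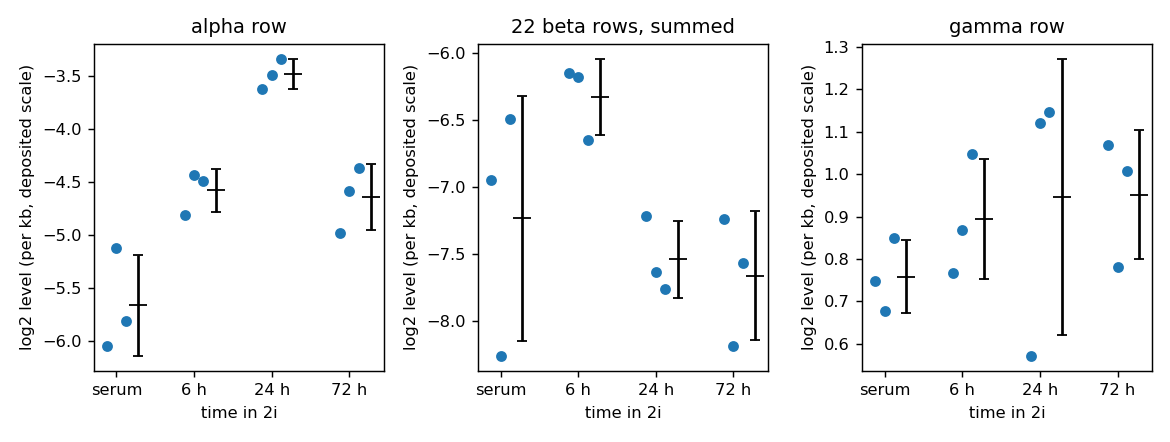
Log2 level per kb on the deposited scale (vertical axes, which differ between panels) of the alpha row, the 22 beta rows summed and the gamma row against time in 2i (horizontal axis). Points are single libraries, and the black marks show the mean ± SD of 3. The 24 h libraries of the alpha row lie between -3.62 and -3.33, above all others, while the gamma row overlaps at every time.

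The gamma row did not pass the test at any time. It held 824, 651 and 1074 reads in serum, 758, 875 and 1032 at 6 h, 658, 1003 and 1276 at 24 h, and 1259, 830 and 1008 at 72 h. The log2 levels were 0.76 ± 0.09 for serum, 0.89 ± 0.14 for 6 h, 0.95 ± 0.32 for 24 h and 0.95 ± 0.15 for 72 h (mean ± SD, n = 3), and the groups overlapped. The log2 changes from serum were 0.14, 0.19 and 0.19 at 6, 24 and 72 h, each with an SE of 0.17 (adjusted p = 0.736, 0.381 and 0.388 in limma). Without 1 library they ran from 0.06 to 0.20 at 6 h, 0.09 to 0.38 at 24 h and 0.14 to 0.28 at 72 h, and none passed. The 24 h group was the most spread, with replicate 1 at 0.57 and the others at 1.12 and 1.15. With a smooth trend against gene span removed from each library, an alternative chosen after seeing the data, the gamma row passed the test as higher at 24 h (0.58, adjusted p = 0.00471 in limma).

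The beta genes were near the limit of detection throughout. Summed over the 22 genes, the 3 serum libraries held 36 reads (95% Poisson interval 25.2 to 49.8) and the 6 h libraries 54 (40.6 to 70.5). The 24 h libraries held 24 reads (15.4 to 35.7) and the 72 h libraries 25 (16.2 to 36.9). Poisson intervals cover counting error only, and the summed log2 levels of the groups overlapped except that the 6 h libraries were all above those of 24 and 72 h. The beta sum was therefore highest where the alpha row was at an intermediate level, and low at 24 h where the alpha row was highest. Reads of near-identical beta genes may have been split between copies or dropped, and no source used here says how the counting treated them.

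Pcdhb22 was the most read beta gene, with 47 reads in 11 of 12 libraries. Its reads were 4, 2 and 6 in serum, 5, 6 and 0 at 6 h, 5, 4 and 2 at 24 h, and 7, 2 and 4 at 72 h, and all groups overlapped.

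Pcdhb14 was the second, with 22 reads. It held 0, 1 and 2 reads in serum, 7, 3 and 5 at 6 h, 0, 1 and 1 at 24 h, and 1, 1 and 0 at 72 h, so that the 6 h libraries stood above all others. The log2 change at 6 h was 2.01 ± 0.45 with an adjusted p of 0.0122 in limma. Because a library without reads was entered as 0.9 reads, this change depends on that value and is no bound on the true fold. The call was lost without serum replicate 1 (adjusted p = 0.0541 in limma) or without 6 h replicate 1 (0.0596).

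Pcdhb3 held 0, 0 and 1 reads in serum, 0, 1 and 0 at 6 h, 1, 1 and 1 at 24 h, and 2, 2 and 3 at 72 h. Its log2 change at 72 h was 1.20 ± 0.42 (adjusted p = 0.0355 in limma), resting on 7 reads against 1, and it passed in only 1 of 6 fits without 1 library, that without 72 h replicate 1 (adjusted p = 0.0383, and 0.0532 to 0.127 in the other 5). The call was also lost in limma under the replicate block (adjusted p = 0.0552) and with only the 6 libraries compared (0.0740). It was lost too with a pseudocount of 1 on the unlogged deposited scale (adjusted p = 0.286 in limma), which is not 1 read. Pcdhb2 went the other way, with 2, 1 and 3 reads in serum, 1, 3 and 2 at 6 h, none in any 24 h library and 0, 0 and 1 at 72 h. Its log2 change was -1.01 ± 0.48 at 24 h and -1.06 ± 0.48 at 72 h (adjusted p = 0.0946 and 0.0906 in limma), and neither passed. Both passed in limma as lower when every gene with reads was tested (adjusted p = 0.0490 and 0.0452) and without a variance trend (0.0390 and 0.0359). At 1 to 7 reads a library, a difference of single reads decides such values.

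In all, 6 of the 24 members had reads in 6 or more libraries and were tested. At 6 h, limma called 1 of them higher (Pcdhb14) and none lower, against 8.16% and 5.08% of the 17552 genes tested. At 24 h, 1 was called higher (the alpha row) and none lower, against 29.1% and 24.6%. At 72 h, 2 were called higher (the alpha row and Pcdhb3) and none lower, against 23.1% and 23.2%. Between 24 and 72 h, 1 was called (the alpha row), against 27.2% in either direction. At an unadjusted p under 0.05, none was lower at 6 or 24 h and 1 was lower at 72 h (Pcdhb2). With 6 members tested, counts of 1 and 2 are too small to be read against these shares, and the 18 members that were not tested had reads in 5 libraries or fewer.

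The known regulators of these clusters were mostly called lower from 24 h on. Of 25 genes looked for, 23 were tested, and limma called 5 lower and 2 higher at 6 h, 18 lower and 1 higher at 24 h, and 14 lower and none higher at 72 h. Over all genes tested, 5.08% were lower at the first of these times, 24.6% at the second and 23.2% at the last. The median log2 change of the list was -1.0 at 24 h and -0.69 at 72 h, against 0.11 and -0.02 over all genes. These genes are long, with a median span of 46.3 kb against 19.6 kb over all genes tested and 9 of the 23 in the longest 20%, and long genes were lower at 24 h as described above. With the span trend removed, 18 were still called lower and 1 higher at 24 h (median -0.82), against 26.9% lower and 25.8% higher of all genes. Ctcf, whose protein binds the alternate promoters and their enhancers, changed by -1.07 ± 0.14 at 24 h (adjusted p = 7.0e-05 in limma), and Nipbl, which loads cohesin on DNA, by -2.23 ± 0.33 (adjusted p = 0.000177 in limma). Dnmt3b, the de novo methyltransferase that methylates clustered protocadherin promoters, changed by -3.34 ± 0.13 at 24 h and -4.19 ± 0.13 at 72 h (adjusted p = 1.86e-08 and 1.50e-09 in limma). Smchd1, a silencer of clustered protocadherins, changed by -0.73 ± 0.18 at 24 h and passed (adjusted p = 0.00553 in limma), whereas Wiz, a partner of the H3K9 methyltransferases, changed by -0.58 ± 0.25 and did not (adjusted p = 0.0703 in limma).

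Of the proteins that act with clustered protocadherins in the cytoplasm, 10 of 11 genes looked for were tested, and 7 were called lower and 1 higher at 24 h and 4 lower and 1 higher at 72 h. The shares over all genes were 24.6% lower and 29.1% higher at 24 h, and 23.2% and 23.1% at 72 h. With the span trend removed 6 were lower and 1 higher at 24 h. The WAVE complex gene Wasf1 changed by -0.96 ± 0.11 and Ptk2, which encodes focal adhesion kinase, by -0.74 ± 0.11 (adjusted p = 3.61e-05 and 0.000210 in limma), while the kinase gene Fyn rose by 0.62 ± 0.14 (adjusted p = 0.00292 in limma).

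Protocadherins and cadherins outside the clusters were mostly called lower. Of 16 genes looked for, 12 were tested, and 9 were called lower at 24 h and none higher, and 9 lower and 1 higher at 72 h. Among all genes 24.6% were lower and 29.1% higher at 24 h, and 23.2% lower and 23.1% higher at 72 h. With the span trend removed, 9 were again lower and none higher at 24 h. Pcdh1, on the same chromosome after the gamma cluster, changed by -3.27 ± 0.23 at 24 h, and Pcdh18 by -2.75 ± 0.28 (adjusted p = 7.68e-07 and 1.45e-05 in limma). Pcdh19 was the gene called higher at 72 h (0.97 ± 0.25, adjusted p = 0.00748 in limma). Whether the members differ from these genes was not tested.

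Genes around the clusters were called in both directions. Of 35 other rows within 500 kb, 32 were tested, and 11 were called higher and 8 lower at 24 h and 6 higher and 9 lower at 72 h, beside 29.1% higher and 24.6% lower of all genes at 24 h and 23.1% and 23.2% at 72 h. With the span trend removed the split at 24 h was 8 higher and 13 lower, against 25.8% and 26.9% of all genes. Gm6756, a row that ends less than 10 kb before the alpha row, rose by 2.56 ± 0.53 at 24 h (adjusted p = 0.00171 in limma), and Slc25a2, between the beta and gamma clusters, rose by 1.75 ± 0.53 (adjusted p = 0.0162 in limma). Diap1, the row that follows the gamma cluster, changed by -0.98 ± 0.18 at 24 h (adjusted p = 0.000780 in limma). Gm10545, which lies within the alpha row, had no reads in any library. The library kit did not mark strand, so reads of overlapping genes cannot be told apart.

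H3K9me2, a mark of repressed chromatin that spreads over large domains, was not at 1 level across the locus. The bound libraries held 14396552 to 19279328 reads in bins and the inputs 15878750 to 23785128. In what follows a level is the log2 of bound over input reads, each scaled to its library total, so that 0 is the ratio over all listed bins together. The listed bins cover 76.7% of the 2-kb positions of the alpha span, 61.2% of beta and 98.8% of gamma. In serum the alpha cluster was at -0.40 and -0.41 in the 2 libraries, the beta cluster at -1.60 and -1.46, and the gamma cluster at -2.11 and -2.32. The other bins of the chromosome were at 0.11. The gamma cluster, whose row held most of the RNA reads, had the lowest H3K9me2 of the 3 clusters in serum, and the alpha cluster the highest. The alpha row, however, had more RNA per kb in serum than the beta rows summed (log2 level -5.67 against -7.24). The order of the 3 clusters in RNA was thus not the reverse of that in H3K9me2.

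**Figure D3:**
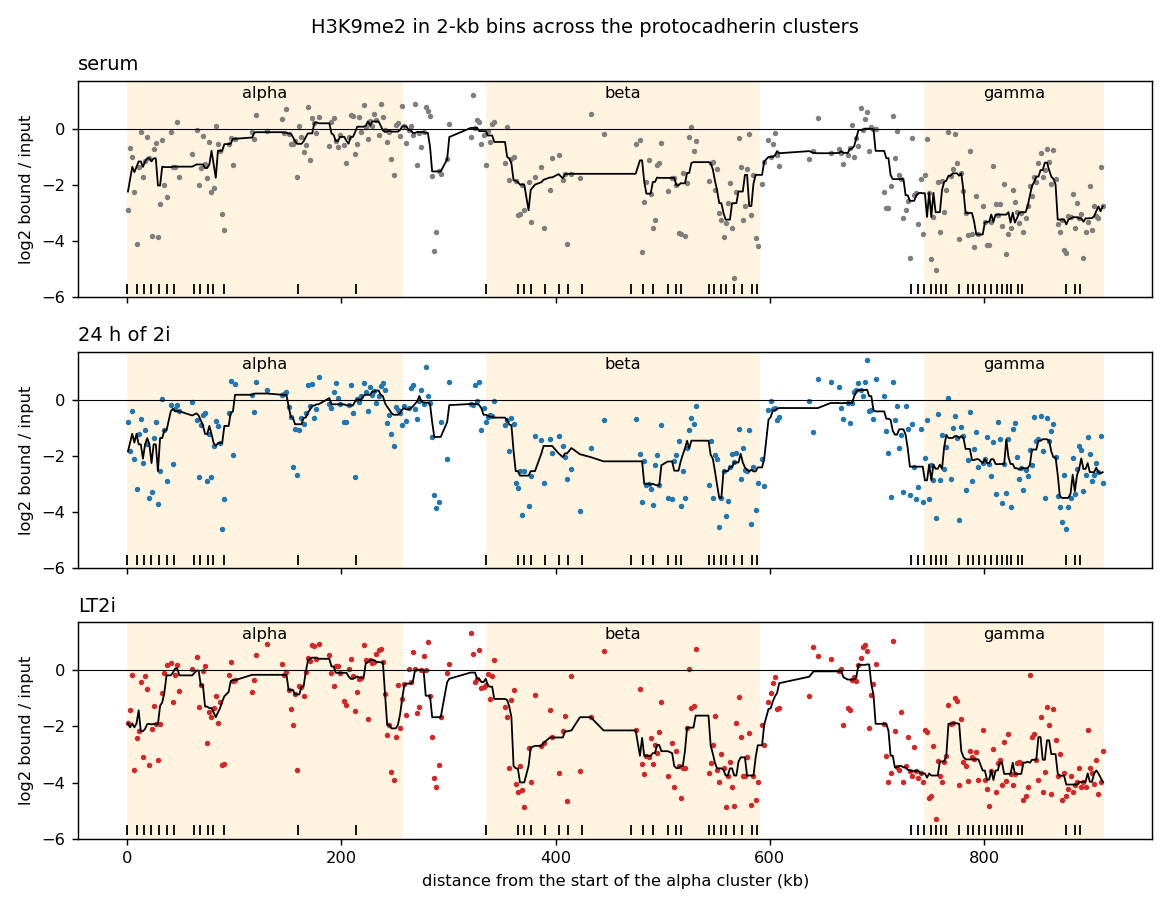
H3K9me2 in the 336 listed 2-kb bins from the alpha to the gamma cluster, as log2 of bound over input reads (vertical axis, mean of 2 bound libraries) against distance from the start of the alpha cluster in kb (horizontal axis), in serum, 24 h of 2i and LT2i. Shading marks the clusters, ticks the gene starts, and the line the running median of 9 bins. The level is near 0 over the second part of the alpha cluster and falls below -1 over most of the beta and gamma clusters.

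Within the alpha cluster the level rose along the locus. The stretch of alternate exons from Pcdha1 to Pcdha12 was at -1.17 and -1.21 in serum, and the stretch from Pcdhac1 to the constant exons at 0.01 in both libraries. In the gamma cluster both stretches were low, with -2.14 and -2.32 over the alternate exons from Pcdhga3 to Pcdhga12, and -2.50 and -2.95 from Pcdhgc3 to the constant exons. The gap between the alpha and beta clusters was at -0.16 and that between the beta and gamma clusters at -0.85 (means of 2). The latter was taken up to the gamma row and so includes the starts of Pcdhga1 and Pcdhga2. The 500 kb before the alpha row and after the gamma row were at -1.53 and -1.57, so low H3K9me2 was not limited to the clusters.

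Bins that hold a gene start had a lower median than the bins of the cluster spans without one. RefSeq lists 14 alpha, 22 beta and 22 gamma genes, and 13, 19 and 22 of their start bins were listed. The gamma start bins include those of Pcdhga1 and Pcdhga2, which lie before the gamma row, and the 20 within it had medians of -3.53 in serum, -2.42 at 24 h and -3.82 in LT2i. In serum the median level of the start bins was -2.10 in alpha, -3.23 in beta and -3.53 in gamma, against -0.30, -1.61 and -2.40 in the other bins. In alpha this contrast mixes in position, since 11 of the 13 start bins lie in the low stretch of alternate exons, where their median was -2.44 against -0.84 in the 28 bins without a start. In LT2i the medians of the start bins were -1.44, -3.76 and -3.79, against -0.35, -2.40 and -3.25. All 22 gamma start bins were below -1 in serum, and 18 of 19 beta and 11 of 13 alpha start bins, against 20.8% of all bins. Among bins of the spans without a start, 88.9% in gamma, 71.7% in beta and 22.1% in alpha were below -1 as well. Start bins of genes outside the clusters were not examined.

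**Figure D4:**
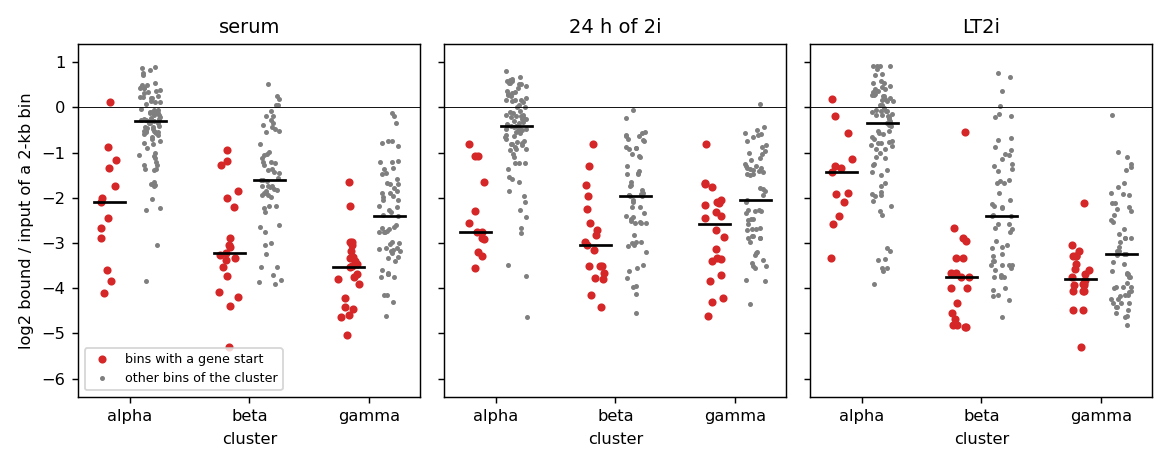
Log2 bound over input (vertical axis, mean of 2 bound libraries) of single 2-kb bins with a RefSeq gene start (red) and of the bins of the cluster spans without one (gray) in serum, 24 h of 2i and LT2i. Horizontal bars are medians. The start bins of alpha have a median of -2.10 in serum against -0.30 for the other bins, and those of gamma -3.53 against -2.40.

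The C-type exons of alpha and gamma stood apart from each other. The Pcdhac1 start bin held 25 and 14 bound reads over 18 input reads in serum, a level of 0.12, which was the highest of the alpha start bins. Its level was -1.09 at 24 h (6 and 11 reads over 28) and -0.58 in LT2i (13 and 10 over 16). The Pcdhac2 start bin was at -0.88 in serum, -2.76 at 24 h and -1.44 in LT2i. The Pcdhgc3 start bin held 0 and 1 bound reads over 21 input reads in serum, 0 and 0 over 36 at 24 h and 1 and 0 over 20 in LT2i. The start bins of Pcdhgc4 and Pcdhgc5 were at -3.52 and -3.19 in serum.

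Single bins hold few reads, so the levels of single start bins carry large counting errors. Over the gene bodies of the beta genes with listed bins, 19 of 22, the median level was -2.40 in serum, -2.72 at 24 h and -3.64 in LT2i, and 15 of the 19 were lower in LT2i than in serum, beside 58.5% of all single bins and 71.6% of those below -1 in serum. Pcdhb1, the gene nearest the alpha cluster, had the highest level of the 19 in each medium, with -0.47 in serum, -0.63 at 24 h and -0.33 in LT2i. Pcdhb14, which had the highest reads at 6 h, went from -2.94 to -3.36 and -4.12.

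At 24 h of 2i the 3 clusters, taken at their exact spans, differed in direction. The gamma cluster was at -1.86 and -1.83, above both serum libraries by 0.37 on average relative to all bins. The 500 kb before the alpha row and after the gamma row were also above both serum libraries, by 0.18 and 0.09. The beta cluster was at -1.79 and -1.86, below both serum libraries, with a mean difference of -0.30. The alpha cluster was at -0.53 and -0.45, also below both serum libraries, with a mean difference of -0.08, about as large as the gap between its 2 libraries at 24 h. With the spans widened by 100 kb the differences were 0.04 in alpha, -0.02 in beta, where the libraries then overlapped serum, and 0.28 in gamma, so the directions in alpha and beta depend on where the spans end.

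In LT2i the beta and gamma clusters were lower than in serum. The gamma cluster was at -2.83 and -3.11, a mean difference of -0.75, and the beta cluster at -2.14 and -2.13, a mean difference of -0.60. The alpha cluster was at -0.48 and -0.41, which overlapped serum on this relative scale. Within it, the summed level of the alternate exons was -0.92 and -0.85, above both serum libraries by 0.31 relative to all bins. The median of their 39 bins moved less, from -1.35 in serum to -1.26 in LT2i. It went from -2.44 to -1.89 in the 11 bins with a gene start and from -0.84 to -0.86 in the 28 without. The stretch from Pcdhac1 onward had a mean difference of -0.18. With the spans widened by 100 kb the differences were 0.16 in alpha, above both serum libraries, -0.24 in beta and -0.41 in gamma. The 500 kb after the gamma row had a mean difference of -0.86, against -0.75 in the gamma cluster, and the 500 kb before the alpha row of -0.06. With 2 libraries against 2, an exact test of a summed level cannot pass 0.05, and none was run.

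**Figure D5:**
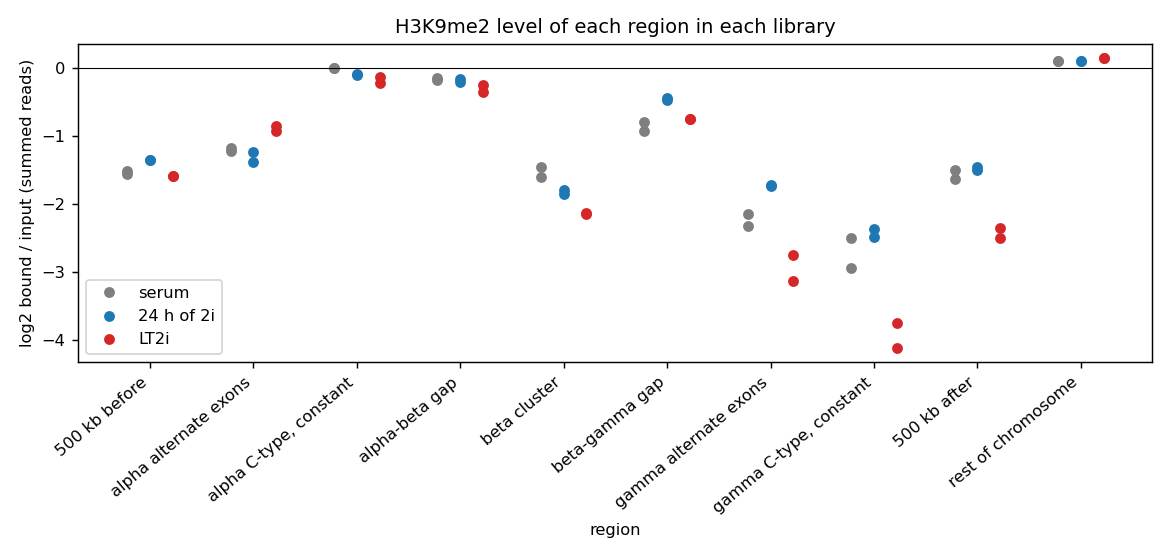
H3K9me2 level, as log2 of summed bound over summed input reads scaled to library totals (vertical axis), of the parts of the locus, its flanks and the rest of the chromosome (horizontal axis). Each point is 1 bound library, 2 per medium. The gamma parts lie between -1.71 and -2.95 in serum and at 24 h and fall to between -2.74 and -4.12 in LT2i, while the rest of the chromosome stays between 0.11 and 0.15.

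The bins were also counted by direction. In LT2i, 69 of 83 gamma bins and 57 of 79 beta bins were lower than in serum, and 54 of 99 alpha bins, against 58.5% of all bins and 71.6% of all bins that were below -1 in serum. The median differences were -0.55 in gamma, -0.73 in beta and -0.09 in alpha. They were -0.20 over all bins and -0.66 over those below -1 in serum, a set chosen by its serum value. At 24 h, 57 of 83 gamma bins were higher than in serum, against 48.0% of all bins and 54.9% of those below -1. The share of bins below -2 over the whole table went from 10.8% in serum to 21.6% in LT2i, so a lower level in LT2i was common among bins outside the clusters as well.

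Tested bin by bin in limma, none of the 261 cluster bins was called at 24 h (0% of 1026637 bins, smallest adjusted p over the cluster bins 0.695), and 5 alpha, 9 beta and 10 gamma bins had an unadjusted p under 0.05, of 99, 79 and 83, against 6.77% of all bins. With the input of each medium subtracted, 5 cluster bins were called at 24 h, 3 higher and 2 lower, against 2.51% of all bins in either direction. In LT2i, 18 were called, 2 higher and 16 lower, against 2.92% and 8.36% of all bins. By cluster these were 1 higher and 4 lower of 99 in alpha, 6 lower of 79 in beta, and 1 higher and 6 lower of 83 in gamma. In no cluster was the share called lower in this fit above that of all bins. With the input subtracted 40 were called, against 21.4% of all bins, and with the replicate block 20, against 12.8%. Centering each library on its median bin changed the split in LT2i to 7 higher and 2 lower in alpha, 3 lower in beta, and 1 higher and 5 lower in gamma, against 6.55% higher and 6.77% lower of all bins. It moved the median log2 change over all bins from -0.15 to 0.03, so the direction over single alpha bins and over the whole table depends on the scaling, and the counts by direction above were made without this centering. The calls in LT2i rest on all 4 libraries together, since few or none held without any 1 of them. Such fits leave a single library in a group, and calls also fell over the whole table. The median log2 change over bins in these fits ran from -0.21 to -0.07 in alpha, -0.96 to -0.65 in beta and -0.90 to -0.54 in gamma.

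In windows of 10 kb, which hold more reads, 9 of 18 gamma windows and 6 of 24 beta windows were called lower in LT2i and none higher, against 27.0% lower and 17.4% higher of all windows. In alpha 4 of 25 were lower and 2 higher.

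The 4 lower bins of alpha lay close together near the 3′ end of the row, at 246.7, 248.7, 250.7 and 254.7 kb from its start, and the higher bin lay at 34.7 kb among the alternate exons. In the last of the lower bins (GRCm38 chromosome 18, 37184001 to 37186000) the bound reads were 21 and 19 in serum, 16 and 11 at 24 h and 8 and 5 in LT2i. The bin among the alternate exons (36964001 to 36966000) held 9 and 9 bound reads in serum and 26 and 24 in LT2i.

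In gamma, 3 of the 6 lower bins lay between the alternate exons and the start of Pcdhgc3, at 850.7, 854.7 and 862.7 kb, and the lowest adjusted p of all cluster bins (0.012 in limma) was that of the bin from 37792001 to 37794000, with 9 and 9 bound reads in serum, 6 and 9 at 24 h and 1 and 1 in LT2i. Its input reads were 37, 26 and 20. In beta, 2 of the 6 lower bins held a gene start, those of Pcdhb6 and Pcdhb15. Both rest on few bound reads, 4 and 5 in the first and 4 and 4 in the second in serum, against 1 and 1 in LT2i in each. Pcdhb6 had reads in 3 RNA-seq libraries and Pcdhb15 in none. RNA was not measured here in LT2i and H3K9me2 not at 6 or 72 h, so the 2 measures meet only in serum and at 24 h.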

How the data were processed

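Members, gene lists and regions were chosen with earlier results of these data known. The RNA-seq table deposited by the authors holds log2 reads per gene, length and depth corrected, at 1 common 75th percentile, and the ChIP-seq table log2 reads in bins of 2 kb at the scale of the deepest library. In both, 0 reads were entered as 0.9. The submitters' processing notes name Trim Galore 0.3.5, TopHat2 2.0.11, Bowtie2 and Bismark 0.12.3 without roles, and no counting rule was found. Coordinates are those of GRCm38, and gene starts those of RefSeq (GRCm38.p6). Undoing the scaling gave whole reads for all members, within 0.01 of a read, and for all bins within 2%. For the alpha and gamma rows, closeness to whole reads was itself the criterion by which the row length was chosen.

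Genes with reads in 6 or more of 12 libraries, and all bins, were fitted in limma 3.58.1 (R 4.3.3, lmFit, eBayes with trend) with all groups in 1 fit, with calls made under 0.05 after Benjamini-Hochberg adjustment. The fits were tested on simulated data. Values per sample are given for members called in any comparison, the C-type genes where they have values, and the 2 members of each cluster with the highest mean. Examples from lists, flanks and single bins were chosen after their values were seen. Alternatives covered filters, pseudocount, scaling, libraries in the fit, replicate block, window size and input. Same-numbered RNA-seq libraries correlated over 0.1 in only 9 of 18 pairs, so numbers were not taken as pairs. All pairs of replicate 3 libraries were over 0.1 (0.19 to 0.55), and the replicate block was fitted as an alternative. RRBS and ChIP-BS, on another build, were not used here, and no sequence is shown. Values of 1 gene of the regulator list are not reported here.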

Additional observations from a re-analysis of the deposited data

Results flagged for a closer look

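The alpha row moved differently at the 2 later times, with a log2 change of -1.16 from 24 to 72 h that passed limma's test of that difference but was lost in all 6 fits without 1 library (adjusted p = 0.0577 to 0.132 in limma). The H3K9me2 level of the gamma cluster was above both serum libraries in every library at 24 h and below both in every LT2i library, which flagged it. The LT2i change minus the 24 h change was -1.13 (log2). Its alternate exons (-1.22) and its C-type and constant exons (-1.51) were flagged for the same reason. The C-type and constant exons were flagged narrowly, at -2.48 and -2.37 at 24 h against -2.50 and -2.95 in serum. Only the clusters and their parts were checked in this way. The 500 kb before the alpha row and after the gamma row were also above serum at 24 h (0.18 and 0.09) and below it in LT2i (-0.06 and -0.86). The alternate exons of the alpha cluster moved the opposite way in summed level, below serum at 24 h and above it in LT2i, with a difference of 0.42. Their levels at 24 h were -1.38 and -1.24 against -1.17 and -1.21 in serum. The margin to serum was smaller than the gap between the 24 h libraries. The differences in H3K9me2 were not tested.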

How the results depend on the processing

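The alpha row was called at 24 h in every fit that tested it. With every gene that had reads, where 17 members were tested in place of 6, 2, 2 and 2 were called at 6 h, at 24 h and between 24 and 72 h, and without a variance trend 2 and 2 at 6 and 24 h. Both settings called 3 members at 72 h, the added one being Pcdhb2, lower. Where no share of all genes stands beside a count from an alternative fit, the count cannot be read against a background. With a mean log2 value of 0 or more, which drops all members but the gamma row, 0 were called at 6, 24 and 72 h. At 72 h, 0 were called with a pseudocount of 1 and 0 with only the 6 libraries compared. The pseudocount was added on the unlogged deposited scale and is not 1 read. With the replicate block 1 was called at 72 h, the alpha row, and the block changed no other call among the members. Calls in the other gene lists were not compared under the block. Block fits of H3K9me2 called 20 of 261 bins in LT2i (12.8% of all bins) and 0 at 24 h (0%). With the span trend removed, added after seeing the data, 3 of 6 were called at 24 h (the alpha and gamma rows higher and Pcdhb2 lower), against 25.8% higher and 26.9% lower of all genes. Leaving out 1 library gave 0 to 1 calls among the 6 members at 6 h, 0 to 2 at 72 h and 0 between 24 and 72 h. Few or no cluster bins kept their call in LT2i without 1 library, and calls fell over the whole table as well. The change of the gamma row from 24 to 72 h turned to -0.00084 with the pseudocount and ran from -0.18 to 0.11 without 1 library, being -0.18 without 24 h replicate 1, -0.05 without 72 h replicate 1 and -0.02 without 72 h replicate 3. With input subtracted, 5 bins were called at 24 h (2.51% of all bins) and 40 in LT2i (21.4%), and the error of the single inputs is not in that test. The alpha level at 24 h changed by -0.14 without input. With spans widened by 100 kb the changes were 0.0388 (alpha) and -0.0172 (beta) at 24 h and 0.16, -0.24 and -0.41 (alpha, beta, gamma) in LT2i. Without 1 library the cluster changes kept their signs. For moves with no cause named, the cause was not tested. Depth limits the beta genes most, at 0 to 7 reads a library.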

Other observations

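Other marker lists were read beside the members, at 24 h, where the alpha row was highest, and at 72 h. Calls are those of limma, and over all genes 29.1% were higher and 24.6% lower at 24 h, and 23.1% and 23.2% at 72 h. Of 8 ESC markers 5 were called higher and 1 lower at each of the 2 times. Of 6 feeder fibroblast markers none was higher, 2 were lower at 24 h and 3 at 72 h. Of 5 mesoderm markers none was higher, 3 were lower at 24 h and 2 at 72 h. Of 6 endoderm markers 2 were higher and 2 lower at 24 h, and 1 higher and none lower at 72 h. Of 5 trophoblast markers 1 was higher and 3 lower at 24 h (median log2 change -1.75), and 1 higher and 1 lower at 72 h. Their summed log2 level went the other way, with 3.38 to 3.69 in serum, 4.22 to 4.50 at 24 h and 5.37 to 5.52 at 72 h, and is mostly Tfap2c, the marker called higher. Lists of 5 to 8 genes are too short to be read against these shares. In the gap between the beta and gamma clusters the H3K9me2 level was -0.79 and -0.92 in serum, -0.47 and -0.43 at 24 h, and -0.75 and -0.75 in LT2i, above both serum libraries at each time. This gap was taken up to the gamma row and so includes the starts of Pcdhga1 and Pcdhga2.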
